A study of Mus musculus with 12 samples.

Results

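The transcriptional repressor Zhx2 and 3 genes that it is known to repress in liver, H19, Gpc3 and Afp, were followed in mouse hearts. These 4 genes were taken by symbol from the 27179 genes of the deposited table. RNA of heart tissue was sequenced in 12 libraries, in 4 groups of 3. The groups were Balb/cJ and Balb/cByJ mice after sham surgery or after transverse aortic constriction (TAC), a band on the aorta against which the left ventricle must pump. The title of the series gives Balb/cByJ as the carrier of an ACADS deletion. All mice ate a diet with 10 kcal% fat, begun 4 days before the operation, and the hearts were collected 1 week after it. Age and sex are not given in the labels used here, and neither is whether a library came from 1 animal, so p-values measure only the spread between these libraries.

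Zhx2 encodes a nuclear protein with zinc fingers and homeodomains that binds the A subunit of the trimeric factor NF-Y and lowers transcription. In adult mouse liver it keeps down genes that are active in the fetus. BALB/cJ mice are known to carry a retroviral insertion in the first intron of Zhx2, which lowers its RNA, and their adult livers hold more Afp, H19 and Gpc3 RNA than those of other strains. Afp encodes alpha-fetoprotein, the albumin-like serum protein of the fetus. H19 is an imprinted long noncoding RNA made next to Igf2, and Gpc3 encodes glypican-3, a heparan sulfate proteoglycan anchored in the cell membrane. The comparison between the strains asks how these genes stood in heart.

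Values are read counts that the authors normalized per library and rounded to whole numbers. Their sums ran from 25161466 to 34157613 per library. Tests were made with limma on log2(value + 1) over the 14038 genes with a mean of at least 10, and the threshold was a p of 0.1 after Benjamini-Hochberg adjustment. Differences are given on that log2 scale ± SE.

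One library went against its label. By a rule written after the values were seen, 10 genes separated the 6 Balb/cJ libraries from the 3 sham Balb/cByJ libraries by at least 8-fold in the mean and at least 4-fold between the nearest libraries. They were Zhx2, Dnah17, Otud3, Gpnmb, Mlana, Mmp12, Atp6v0d2, Tmem215, Neto1 and Gm10503. The libraries TAC Balb/cByJ 4 and 5 lay nearer to Balb/cByJ at 10 of the 10 genes, and the library labelled TAC Balb/cByJ 6 lay nearer to Balb/cJ at 10 of the 10, of which 9 are genes other than Zhx2. Dnah17, an axonemal dynein gene, stood at 2 in that library, at 1 to 11 in Balb/cJ and at 805 to 1019 in the other Balb/cByJ libraries. Not all 10 genes lay inside the Balb/cJ ranges. Toward Balb/cByJ lay Otud3 (158, Balb/cJ 201 to 238), Gpnmb (212, Balb/cJ 51 to 105), Tmem215 (15, Balb/cJ 2 to 10) and Atp6v0d2 (15, Balb/cJ 2 to 7). Zhx2 (48) lay just above its Balb/cJ range (21 to 47). Acads could not check this label, because its range after TAC in Balb/cByJ (5613 to 6697) lay inside that in TAC Balb/cJ (5415 to 8670). Tests of Zhx2, H19 and Gpc3 are therefore given with and without it. For other genes a second value is given where the call changes or where TAC Balb/cByJ is compared.

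Markers of other cell types also differed between the groups. The summed level of 6 epicardial and mesothelial markers was 155 to 212 after sham and 325 to 794 after TAC in Balb/cJ. In Balb/cByJ it was 343 to 426 after sham and 516 to 1034 after TAC. The 7 fibroblast markers summed to 35789 to 50864 after sham and 78794 to 140885 after TAC in Balb/cJ. In Balb/cByJ they summed to 38708 to 55876 after sham and 91344 to 116038 after TAC, the lowest value being that of the library labelled TAC Balb/cByJ 6 (107036 in the next). By the medians given below, the 5 atrial markers shifted most. Their sums were 8540 to 18595 after sham and 39218 to 150568 after TAC in Balb/cJ. Most of each sum was Nppa, at 8401 to 18449 after sham and 32183 to 123392 after TAC in Balb/cJ. In Balb/cByJ the atrial sums were spread from 3670 to 107420 after sham and from 22114 to 225808 after TAC. Between strains after sham 3 of the 5, Sln, Myl7 and Myl4 but not Nppa, were called higher in Balb/cByJ (median log2 difference 5.33). Of all genes 8.37% were called there. After TAC in Balb/cJ 5 of the 5 rose (median 7.18), against 31.5% of all genes. Myl7, the atrial myosin light chain, stood at 6, 13 and 11 in sham Balb/cJ and at 4670, 14508 and 237 in sham Balb/cByJ. Of the 5 endothelial markers, 4 fell after TAC in Balb/cJ, with sums of 17531 to 27867 after sham and 15575 to 17097 after TAC. In whole tissue, fewer cells of a type and less RNA per cell cannot be told apart.

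Hepatocyte markers were mixed. The 10 markers summed to 135 to 266 after sham and 251 to 643 after TAC in Balb/cJ, and to 253 to 689 and 402 to 698 in Balb/cByJ. Alb was at 0 or 1 in every library, and Fgb and Apob were at 0 throughout. Most of the sum was Ahsg, a secreted glycoprotein made mainly by liver, at 90 to 670. Of the 3 markers that passed the filter, Apoh and Ttr were lower on average in Balb/cByJ after sham, unlike Ahsg, and neither was called. Apoh stood at 11, 20 and 4 in sham Balb/cJ and at 3, 2 and 3 in sham Balb/cByJ. Ttr stood at 15, 20 and 17 against 11, 12 and 8. Ahsg was higher in Balb/cByJ after sham (1.73 ± 0.46, adjusted p = 0.0538, limma), a call lost without sham Balb/cJ 2 (1.44), sham Balb/cByJ 1 (1.44) or sham Balb/cByJ 2 (1.54). It rose after TAC in Balb/cJ (1.46 ± 0.46, adjusted p = 0.0416), a call lost without the sham library 2 (1.17) or the TAC library 4 (1.10). Ttr, at 6 to 20, fell in that comparison (-0.99 ± 0.35, adjusted p = 0.0594), a call lost without sham library 2 (-0.89) or 3 (-0.9999) or TAC library 6 (-0.80), and with libraries rescaled to the total (-0.79).

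Sequences are shown for the features on which the description of H19, Gpc3 and Afp draws, and all are from RefSeq on GRCm38.p6. H19 carries the microRNA miR-675 at chromosome 7, inside the transcribed unit, and the seed (bases 2 to 8) of each mature strand is in capitals.
mmu-miR-675-5p: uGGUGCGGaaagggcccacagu
mmu-miR-675-3p: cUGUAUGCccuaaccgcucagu
The first lies at chr7:142577112-142577133 and the second at chr7:142577078-142577099, both on the minus strand. The 2 seeds differ. The microRNA's own entry in the table was at 0 in every library, and a poly(A)-selected library does not measure mature microRNAs.

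The 250 bases before the Afp start, chr5:90490464-90490713 on the plus strand, are shown because Afp was the member with almost no RNA. Capitals mark an ATTGG, which is CCAAT, the core of the NF-Y motif, on the other strand, and a TATAAA.
Afp: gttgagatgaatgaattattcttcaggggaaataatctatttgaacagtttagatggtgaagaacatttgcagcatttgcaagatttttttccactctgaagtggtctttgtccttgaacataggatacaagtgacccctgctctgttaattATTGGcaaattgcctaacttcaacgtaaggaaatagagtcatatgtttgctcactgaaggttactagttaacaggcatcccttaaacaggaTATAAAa
On both strands of the same stretch of 32851 RefSeq promoters, TATAAA occurred in 12.4%.

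The 250 bases before the Gpc3 start, chrX:52613975-52614224 on the minus strand, hold 1 CCAAT, in capitals, and are shown because NF-Y is the known partner of Zhx2.
Gpc3: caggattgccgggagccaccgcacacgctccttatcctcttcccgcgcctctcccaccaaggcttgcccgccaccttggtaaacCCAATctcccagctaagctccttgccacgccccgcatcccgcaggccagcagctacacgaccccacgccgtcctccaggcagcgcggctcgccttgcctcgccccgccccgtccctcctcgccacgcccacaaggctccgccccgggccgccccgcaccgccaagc
CCAAT on either strand occurred in 33.8% of the 32851 promoters, so a match is common. Such matches describe letters only.

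Zhx2 (Entrez 387609) spans bases 57694667 to 57839832 of chromosome 15 (mm10, plus strand), with 4 exons of 4374 bases in all. After sham surgery its normalized counts were 36, 32 and 21 in Balb/cJ and 837, 767 and 831 in Balb/cByJ. The groups did not overlap, as was so for 27.2% of all genes, and the means were 29.7 ± 7.77 and 812 ± 38.8 (SD, n = 3 each), a ratio of 27.4. The log2 difference was 4.76 ± 0.78 (adjusted p = 0.00833, limma). Without the library labelled TAC Balb/cByJ 6, which adds its own spread to the shared estimate, the SE was 0.18 and the adjusted p 1.78e-07. In that fit Zhx2 had the smallest p of the 14038 genes, and it ranked 14 by size of the difference. With all libraries it ranked 75 by p and 14 by size. Zhx2 was itself among the genes of the label check, so its first place by p is no independent support.

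After TAC, Zhx2 stood at 47, 47 and 45 in Balb/cJ and at 728, 838 and 48 in Balb/cByJ. The value of 48 belongs to the library labelled TAC Balb/cByJ 6, and it is close to the TAC Balb/cJ values. With that library the strain difference after TAC was 2.71 ± 0.78 and did not pass (adjusted p = 0.289, limma). Zhx2 ranked 206 by p and 19 by size with that library. Without it the difference was 4.05 ± 0.20 and passed (adjusted p = 2.01e-06), with Zhx2 again first by p and ranked 10 by size. The remaining pair of Balb/cByJ libraries had a mean of 783, a ratio of 16.9 to TAC Balb/cJ.

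**Figure D1:**
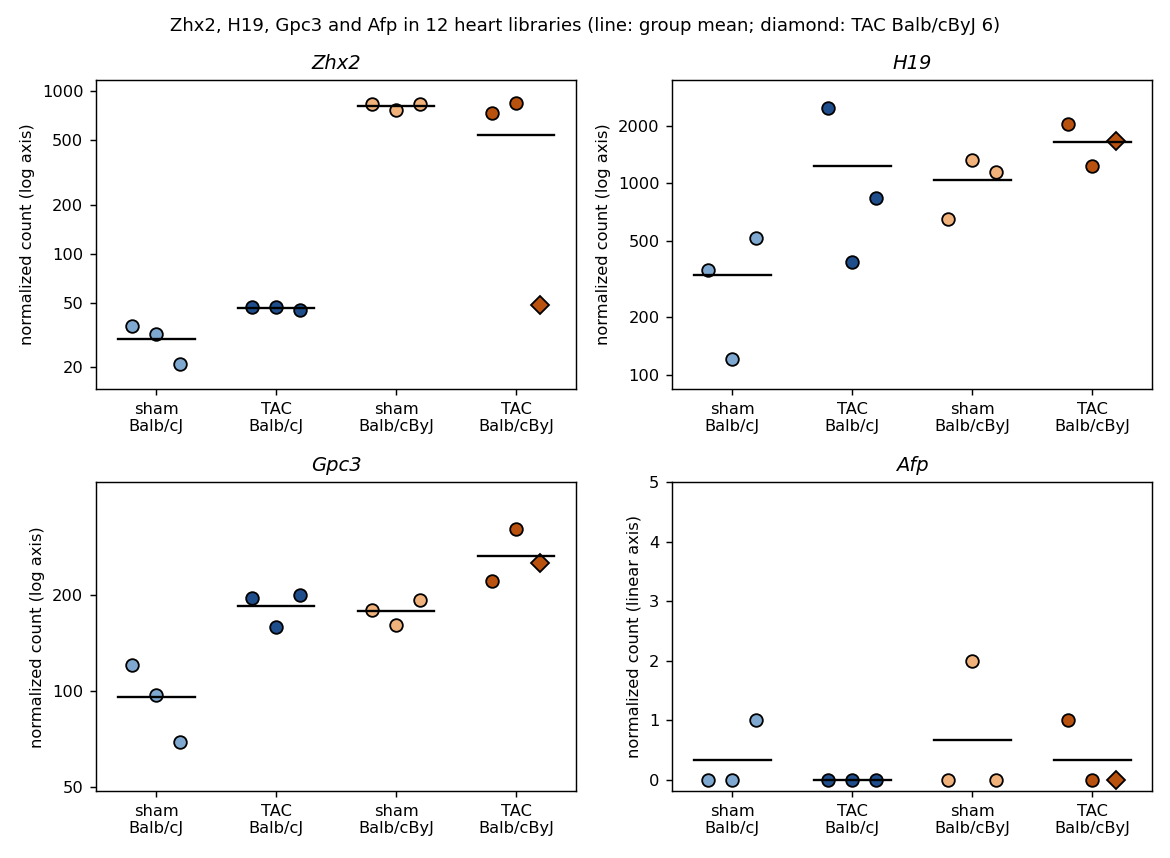
Normalized counts (vertical axes, logarithmic for Zhx2, H19 and Gpc3 and linear for Afp) of the 4 genes in each library of the 4 groups, with group means as lines and the library labelled TAC Balb/cByJ 6 as a diamond. Zhx2 separates the strains except in that library (48), H19 and Gpc3 are lowest in sham Balb/cJ, and Afp does not exceed 2.

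Differences of Zhx2 after TAC were small beside that between the strains. In Balb/cJ the 3 TAC values (45 to 47) lay above the 3 sham values (21 to 36), and 36.9% of all genes were without overlap there. The log2 difference of 0.66 ± 0.78 did not pass with all libraries (adjusted p = 0.57, limma). In a fit of the 6 Balb/cJ libraries only it did not pass either (adjusted p = 0.137, limma). Without the library labelled TAC Balb/cByJ 6 the same difference had an SE of 0.18 and passed (adjusted p = 0.0287). In Balb/cByJ the difference was -1.39 ± 0.78 (adjusted p = 0.269) with that library and -0.05 ± 0.20 (adjusted p = 0.896) without it. The difference between the TAC effects of the strains, the interaction, did not pass in either fit: -2.05 ± 1.10 (adjusted p = 0.748) with all libraries and -0.71 ± 0.27 (adjusted p = 0.851) without. In the authors' deposited table, the shrunken log2 fold change of Zhx2 after TAC was 0.49 in Balb/cJ (adjusted p = 0.235) and -0.13 in Balb/cByJ (adjusted p = 0.755).

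The other members of the family did not separate the strains. Zhx1, which pairs with Zhx2 and lies close to it on chromosome 15, ranged from 573 to 797 over the 12 libraries. Zhx3, another repressor of the family, ranged from 242 to 448, and the related gene Homez from 55 to 110. None of Zhx1, Zhx3 and Homez passed in any of the 5 comparisons (limma), with unadjusted p-values between strains after sham of 0.506, 0.548 and 0.287. Per kilobase of exon, Zhx2 in sham Balb/cByJ (186 ± 8.87) stood above Zhx1 in the same libraries (127 to 136 per kilobase), whereas in sham Balb/cJ (6.78 ± 1.78, SD, n = 3 each) it stood below Homez (12.7 to 13.6 per kilobase). After sham surgery Zhx2 thus had the highest level per length of the 4 family members in one strain and the lowest in the other. The subunits of NF-Y, Nfya (269 to 471), Nfyb (290 to 371) and Nfyc (662 to 915), were expressed in every library, and the Balb/cJ and Balb/cByJ ranges overlapped for each.

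**Figure D2:**
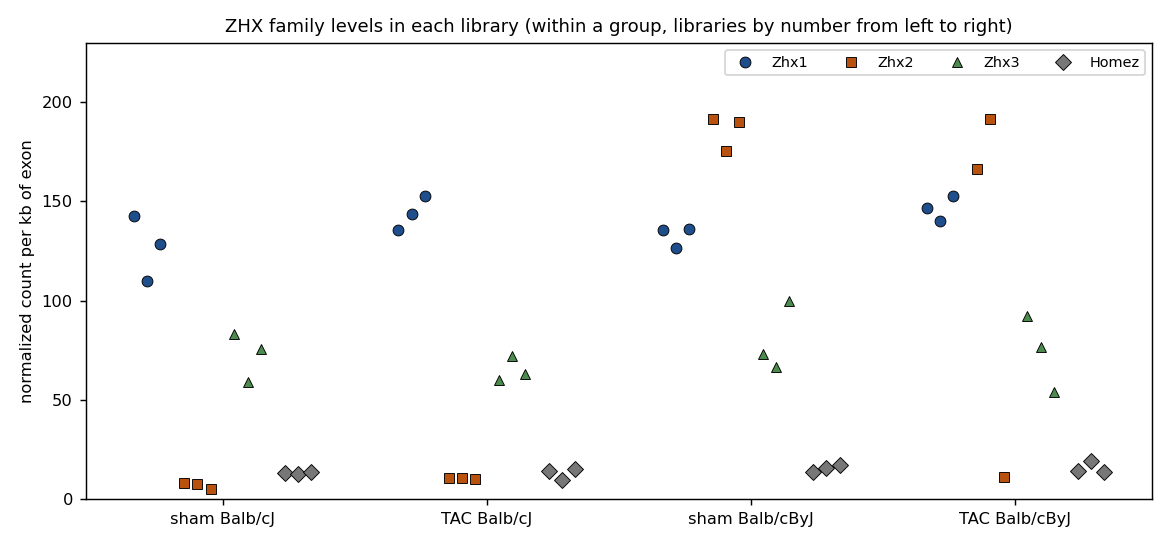
Normalized counts per kilobase of exon (vertical axis) for Zhx1, Zhx2, Zhx3 and Homez in each library of the 4 groups. Zhx2 ranges from 4.80 to 191.6, its lowest values being those of Balb/cJ and of the library labelled TAC Balb/cByJ 6 (10.97), while Zhx1 stays between 109.9 and 152.9.

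Most genes around Zhx2 did not pass between the strains. Of 12 other genes within 500 kb, 9 passed the filter on low values. After sham surgery 2 of the 9 were higher in Balb/cByJ, against 4.27% of all genes that were higher. Fam83a, an adaptor of epidermal growth factor signalling, stood at 1, 0 and 2 in Balb/cJ and 15, 12 and 8 in Balb/cByJ, a log2 difference of 2.76 ± 0.48 (adjusted p = 0.0107, limma). These are low values. After TAC Fam83a stood at 13, 16 and 13 in Balb/cJ and 10, 21 and 17 in Balb/cByJ, so the strains overlapped there. Klhl38, a kelch-like protein of muscle, stood at 765, 704 and 899 against 1142, 1160 and 1319, a difference of 0.62 ± 0.17 (adjusted p = 0.068). Its call was lost when sham Balb/cJ 1 (0.60) or 2 (0.54) or sham Balb/cByJ 1 (0.65), 2 (0.64) or 3 (0.55) was left out. Derl1, the nearest gene that passed the filter, ranged only from 2081 to 2451 over the 12 libraries.

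After TAC in Balb/cJ, 5 of the 9 neighbours passed, 2 higher (Fam83a and Atad2) and 3 lower (Fbxo32, Klhl38 and Wdyhv1), against 31.5% of all genes. Fbxo32, which encodes the muscle ubiquitin ligase atrogin-1, stood at 6076, 5533 and 5341 after sham and 3532, 3226 and 3595 after TAC, and fell by 0.71 ± 0.15 on the log2 scale (adjusted p = 0.0101, limma). In Balb/cByJ it stood at 6542, 5622 and 5638 after sham and 5969, 6410 and 4033 after TAC, where the last value is that of the library labelled TAC Balb/cByJ 6. Without that library, Fbxo32 was higher in Balb/cByJ than in Balb/cJ after TAC by 0.84 ± 0.10 (adjusted p = 0.00404), and with it by 0.64 ± 0.15 (adjusted p = 0.193). Klhl38 differed there by 1.13 ± 0.16 (adjusted p = 0.0105) without the library and by 0.95 ± 0.17 (adjusted p = 0.127) with it. The fall of Klhl38 after TAC in Balb/cJ (-0.56 ± 0.17, adjusted p = 0.0399) was lost without sham Balb/cJ 3 (-0.46), without TAC Balb/cJ 5 (-0.39) and with libraries rescaled to the same total (-0.35). For Atad2 (0.79 ± 0.28, adjusted p = 0.0653) the call was lost without the sham Balb/cJ library 2 (0.87) or 3 (0.54), and without the TAC library 6 of that strain (0.55).

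**Figure D3:**
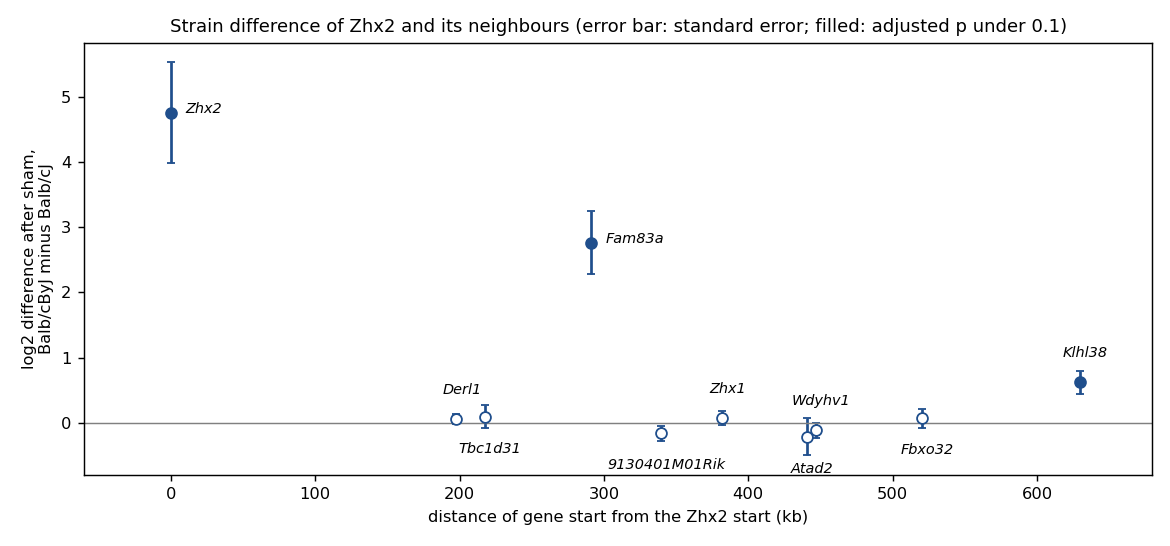
Log2 difference between Balb/cByJ and Balb/cJ after sham surgery (vertical axis, limma, bars are SE) for Zhx2 and the 9 other genes that reach within 500 kb of it and passed the filter, against the distance of their start from that of Zhx2 in kilobases. Zhx2 (4.76) and Fam83a (2.76) stand above the rest, and Derl1 and Tbc1d31 between them lie close to no difference.

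By the mean absolute difference of centred log2 values over the 12 libraries, the genes most like Zhx2 among 13941 were Gm10503 (0.50), Gpnmb (0.62), Tmem215 (0.66), Atp6v0d2 (0.68) and Neto1 (0.72). They lie on chromosomes 17, 6, 4, 4 and 18, none on that of Zhx2, and all 5 are also among the 10 genes of the label check. Gm10503, a predicted gene, stood at 0 in the 6 Balb/cJ libraries and in the library labelled TAC Balb/cByJ 6, and at 33 to 42 in the other Balb/cByJ libraries. Gpnmb, a membrane glycoprotein of macrophages and pigment cells, ran from 51 to 105 in Balb/cJ. Its value in the library labelled TAC Balb/cByJ 6 was 212. The lists of most alike genes depended on the measure. Of those for Zhx2, H19 and Gpc3, 2 changed when ranked by root mean square difference.

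H19 (Entrez 14955) spans bases 142575532 to 142578146 of chromosome 7 (minus strand), as 1 entry of 2615 bases in the deposited annotation. Its normalized counts after sham surgery were 355, 121 and 519 in Balb/cJ and 654, 1316 and 1148 in Balb/cByJ. The groups did not overlap, as was so for 27.2% of all genes. H19 was higher where Zhx2 was higher, the opposite of the order known from liver. The means were 332 ± 200 and 1039 ± 344 (SD, n = 3 each), a ratio of 3.13, and the log2 difference of 1.82 ± 0.61 did not pass (adjusted p = 0.113, limma). It passed in a fit of the 6 sham libraries only (adjusted p = 0.0566), and without sham Balb/cJ 3 (2.26), TAC Balb/cJ 4 or TAC Balb/cJ 5 (1.82 each), so it stood near the threshold.

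After TAC, H19 stood at 2475, 387 and 834 in Balb/cJ and at 2039, 1233 and 1669 in Balb/cByJ. The Balb/cJ values were widely spread, and the strains overlapped. The strain difference after TAC was 0.80 ± 0.61 (adjusted p = 0.72, limma), and 0.77 ± 0.71 (adjusted p = 0.831) without the library labelled TAC Balb/cByJ 6. In that library, where Zhx2 was as low as in Balb/cJ, H19 (1669) lay between the values of the other Balb/cByJ libraries after TAC. A single library gives no test of this.

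In Balb/cJ H19 rose after TAC, by 1.72 ± 0.61 (adjusted p = 0.0627, limma), although the TAC value of 387 lay below the highest sham value of 519. The call was lost without sham Balb/cJ 2 (1.11), TAC Balb/cJ 4 (1.01) or TAC Balb/cJ 6 (1.79), and in a fit of the 6 Balb/cJ libraries only (adjusted p = 0.137). In Balb/cByJ the difference was 0.69 ± 0.61 (adjusted p = 0.478), and 0.67 ± 0.71 (adjusted p = 0.597) without the library labelled TAC Balb/cByJ 6. The interaction did not pass (-1.02 ± 0.86, adjusted p = 0.83, and -1.05 ± 0.95, adjusted p = 0.901, without that library). The authors' deposited table gave shrunken log2 fold changes of 0.65 in Balb/cJ (adjusted p = 0.161) and 0.55 in Balb/cByJ (adjusted p = 0.0358), so it places H19 past its 10% threshold in the strain where limma did not.

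**Figure D4:**
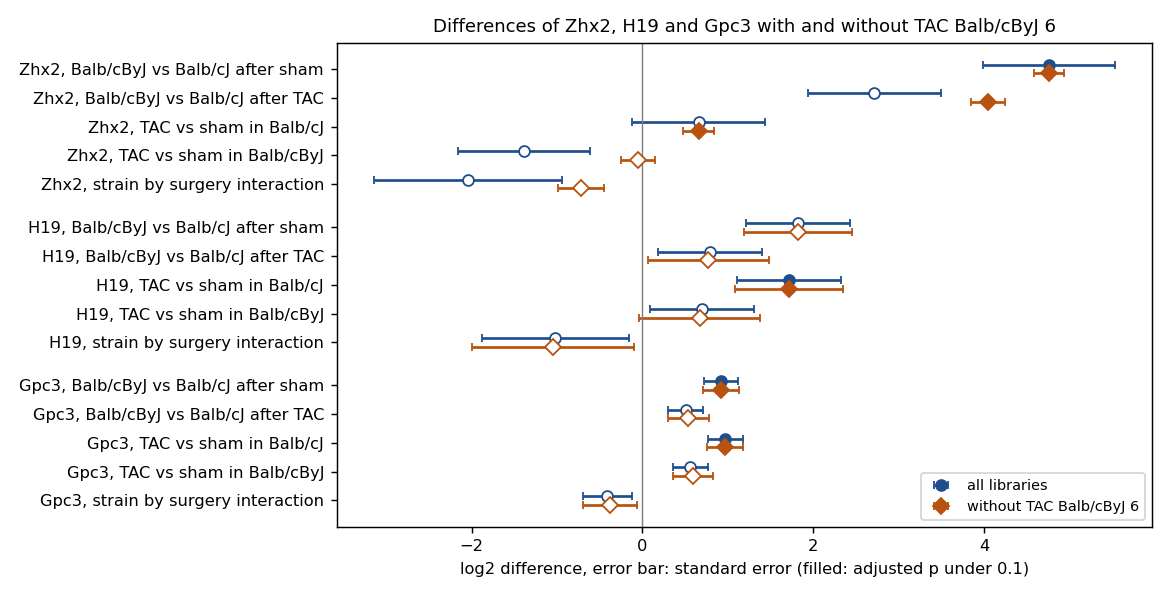
Log2 differences of Zhx2, H19 and Gpc3 (limma, bars are SE) in the 5 comparisons, with all libraries and without the library labelled TAC Balb/cByJ 6. Leaving that library out moves Zhx2 after TAC (strain difference 2.71 to 4.05) far more than H19 (0.80 to 0.77) or Gpc3 (0.51 to 0.54).

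On group average, H19 and the summed level of epicardial and mesothelial markers were both lowest in sham Balb/cJ. Within groups their order differed. In sham Balb/cJ the library with the most H19 (519) had the lowest sum (155). In TAC Balb/cJ the sum was 683 where H19 was 2475, and 794 where H19 was 834. No correlation was computed. Upk3b, a mesothelial surface protein, was higher in Balb/cByJ than in Balb/cJ after sham by 3.52 ± 0.40 (adjusted p = 0.00138, limma) and rose after TAC in Balb/cJ by 3.91 ± 0.40 (adjusted p = 0.000775). Of the 6 markers, 4 were higher in Balb/cByJ after sham and 5 rose after TAC in Balb/cJ, while 6 of 7 fibroblast markers rose after TAC in Balb/cJ. Over all genes, 8.37% were called after sham and 31.5% after TAC in Balb/cJ. Wt1, which also marks the epicardium, was at 80 to 219 with overlapping groups. Atrial markers, and of the hepatocyte markers Ahsg, also differed in the direction of H19 between strains after sham and after TAC in Balb/cJ. Apoh and Ttr, given above, were lower on average in Balb/cByJ after sham, the other direction. After TAC in Balb/cJ, 5 of 5 tested adipocyte markers and 5 of 5 macrophage markers rose too. The part of these cells in the H19 values was not tested.

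**Figure D5:**
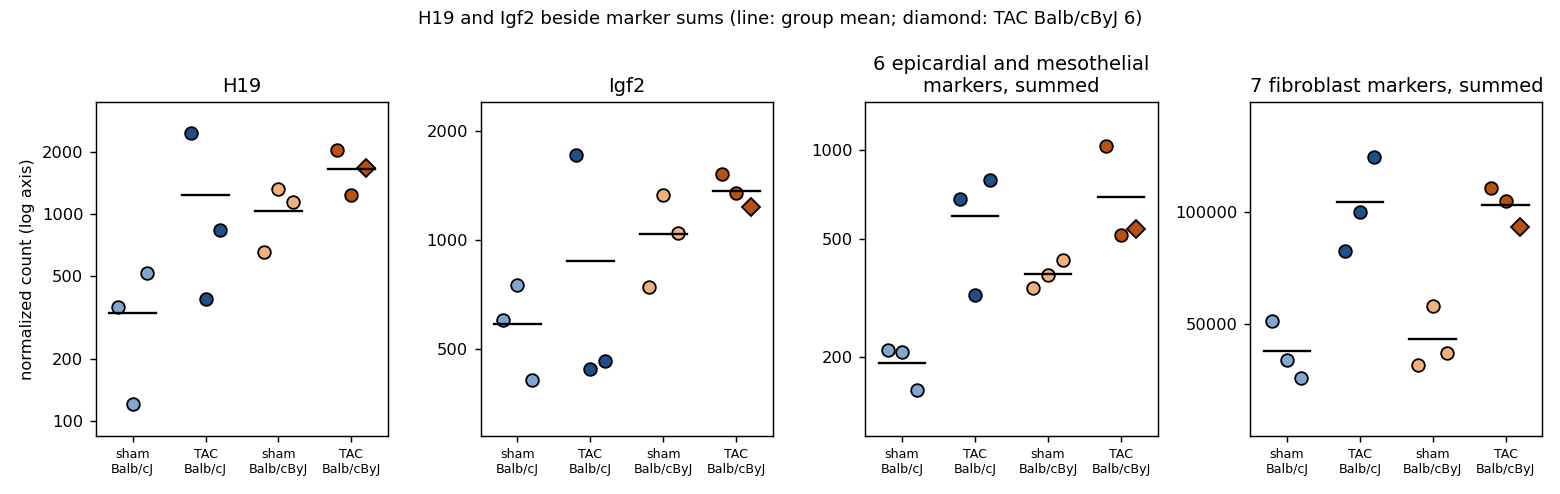
H19, its neighbour Igf2 and summed levels of marker genes per library (normalized counts, logarithmic axes) in the 4 groups, with the library labelled TAC Balb/cByJ 6 as a diamond. H19 and the epicardial and mesothelial sum (155 to 212 in sham Balb/cJ) are lowest in sham Balb/cJ.

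Igf2, the growth factor gene that shares enhancers with H19 and is expressed from the other parental copy, lies next to it. It stood at 601, 752 and 411 in sham Balb/cJ and 742, 1332 and 1045 in sham Balb/cByJ, so the ranges overlapped slightly (log2 difference 0.82 ± 0.43, adjusted p = 0.282, limma). After TAC it stood at 1719, 439 and 462 in Balb/cJ and 1524, 1351 and 1235 in Balb/cByJ. The TAC Balb/cJ library with the most H19 (2475) thus also had the most Igf2 (1719). The ratio of H19 to Igf2 ran from 0.161 to 1.26 after sham and from 0.881 to 1.81 after TAC in Balb/cJ. In Balb/cByJ it ran from 0.881 to 1.10 after sham and from 0.913 to 1.35 after TAC. On the other side, Mrpl23, a mitochondrial ribosomal protein gene, differed little between the strains after sham (-0.15 ± 0.13, adjusted p = 0.553) and fell by 0.50 ± 0.13 after TAC in Balb/cJ (adjusted p = 0.0243).

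H19 belongs to a set of imprinted growth genes whose RNA is known to fall together after birth in the mouse. Of 16 such genes tested, 5 rose and 1 fell after TAC in Balb/cJ, with a median log2 difference of 0.36 against 0.00 over all genes. The share called is close to the 31.5% of all genes. Without the library labelled TAC Balb/cByJ 6, Slc38a4 (0.45 ± 0.18, adjusted p = 0.0938, limma) was called too. The 5 were H19, Meg3, Peg3, Sgce and Dcn, and the gene that fell was Cdkn1c, a cyclin-dependent kinase inhibitor, by 0.98 ± 0.20 (adjusted p = 0.00987, limma). Each of the 5 rises was lost without single libraries, at 0.53 for Meg3 and 0.69 for Peg3 without sham Balb/cJ 3. Those of Sgce (0.23) and Dcn (0.34) were lost without the same library, and Meg3 (0.60) also without TAC Balb/cJ 6. Between strains after sham, 1 of the 16 was higher in Balb/cByJ and 2 were lower, Meg3 and Dlk1, against 8.37% of all genes called. Dlk1 was low, at 35, 20 and 12 in sham Balb/cJ and 6, 5 and 5 in sham Balb/cByJ. Its call (-1.76) was lost at an adjusted p of 0.05 and with libraries rescaled to the total (-1.68). It was also lost without sham Balb/cJ 1 (-1.39) or 2, TAC Balb/cJ 5, or any single sham Balb/cByJ library. The noncoding RNA Meg3 was lower (-1.22 ± 0.23, adjusted p = 0.0135), the opposite direction to H19. The amino acid transporter gene Slc38a4 was higher by 0.91 ± 0.19 (adjusted p = 0.025), and the median of the 16 was 0.06. In Balb/cByJ after TAC, Meg3 rose by 1.97 ± 0.23 (adjusted p = 0.00583), or by 1.86 ± 0.25 (adjusted p = 0.0155) without the library labelled TAC Balb/cByJ 6.

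By the same measure of likeness, the genes most like H19 were Dpp4 (0.39), Slit2 (0.43), Tmem108 (0.46), Slc7a2 (0.47) and Ism1 (0.47). Dpp4, a surface peptidase, stood at 61, 29 and 58 in sham Balb/cJ and 65, 170 and 103 in sham Balb/cByJ. Its TAC values were 120, 48 and 86 in Balb/cJ and 157, 145 and 163 in Balb/cByJ. The Dpp4 mean was lower in TAC Balb/cJ (84.7) than in sham Balb/cByJ (113), while the H19 means were 1232 and 1039. On the log2 scale H19 was lower there too, at 1.72 and 1.82 above sham Balb/cJ. Slit2, a secreted guidance factor, had its highest value (868) in the library with the most H19.

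Gpc3 (Entrez 14734) spans bases 52272426 to 52613974 of the X chromosome (minus strand), with 8 exons of 2269 bases in all. Its normalized counts after sham surgery were 120, 97 and 69 in Balb/cJ and 179, 161 and 192 in Balb/cByJ. The groups did not overlap, as was so for 27.2% of all genes. As for H19, the higher level was in the strain with more Zhx2. The means were 95.3 ± 25.5 and 177 ± 15.6 (SD, n = 3 each), a ratio of 1.86, and the log2 difference of 0.92 ± 0.20 passed (adjusted p = 0.03, limma). Without the library labelled TAC Balb/cByJ 6 the adjusted p was 0.0344. Zhx2 and Gpc3 were thus the 2 of the 3 tested members that passed after sham, against 8.37% of all genes, or 8.57% without that library.

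After TAC, Gpc3 stood at 195, 158 and 200 in Balb/cJ and at 221, 322 and 251 in Balb/cByJ. The strains again did not overlap, as was so for 14.4% of all genes, but the difference of 0.51 ± 0.20 did not pass (adjusted p = 0.438, limma), nor did 0.54 ± 0.24 (adjusted p = 0.537) without the library labelled TAC Balb/cByJ 6. That library, at 251, lay between the other 2 of its group, 221 and 322, and above the 3 TAC Balb/cJ libraries. Its Zhx2 was close to theirs, and a single library gives no test of how Gpc3 relates to Zhx2. With all libraries, none of the 3 tested members passed between strains after TAC by limma, 2 of them having an unadjusted p under 0.05, against 0.00712% of all genes. Without that library Zhx2 passed, against 0.534% of all genes.

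Gpc3 rose after TAC in Balb/cJ, by 0.97 ± 0.20 (adjusted p = 0.0107, limma), with 3 of 3 TAC libraries above the 3 sham libraries. Groups did not overlap there for 36.9% of all genes. H19 and Gpc3 were the 2 of the 3 tested members that passed in this comparison, against 31.5% of all genes, so passing was common here. Without the library labelled TAC Balb/cByJ 6 all 3 passed, against 31.7%. Zhx2 and H19 did not pass in a fit of the 6 Balb/cJ libraries only (adjusted p = 0.137 each, limma). For Gpc3 in Balb/cByJ the TAC libraries also lay above the sham libraries, and groups did not overlap for 35.3% of all genes. The difference was 0.56 ± 0.20 (adjusted p = 0.114). It was 0.59 ± 0.24 (adjusted p = 0.184) without the library labelled TAC Balb/cByJ 6. None of the 3 tested members passed after TAC in Balb/cByJ by limma, 1 having an unadjusted p under 0.05, against 12.6% of all genes, or 4.89% without that library. For Gpc3 this call changed with the scaling, since it passed with libraries rescaled to the same upper quartile (0.61) or total (0.72). The interaction was -0.41 ± 0.29 (adjusted p = 0.794), and -0.38 ± 0.32 (adjusted p = 0.889) without that library. None of the 3 members passed in the interaction by limma, 0 having an unadjusted p under 0.05 (1, Zhx2, without that library), against 0.00712% of all genes.

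The authors' deposited table gave Gpc3 shrunken log2 fold changes after TAC of 0.83 in Balb/cJ (adjusted p = 0.0038) and 0.50 in Balb/cByJ (adjusted p = 0.0333), both past its threshold. For Gpc3 the deposited call in Balb/cByJ differs from that of limma, while the direction was the same. Gpc3 was called in the comparisons in which atrial, epicardial and mesothelial markers and Ahsg also shifted. Between strains after sham, the hepatocyte markers Apoh and Ttr went the other way from Ahsg. The part of these cell types in the Gpc3 values was not tested.

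Among the glypicans, 5 of 6 passed the filter, and Gpc3 was the 1 called between strains after sham, against 8.37% of all genes. Gpc4, its neighbour on the X chromosome, ranged from 607 to 973 (0.29 ± 0.13, adjusted p = 0.226, limma), and Gpc1 was the most abundant at 11860 to 21167. After TAC in Balb/cJ 2 of the 5 rose, Gpc3 and Gpc6, and the median of the 5 was 0.57, beside 31.5% of all genes called. Gpc1 was called lower there (-0.34 ± 0.13, adjusted p = 0.0852, limma) without the library labelled TAC Balb/cByJ 6, and not with it (adjusted p = 0.136). Gpc6 rose by 0.68 ± 0.19 (adjusted p = 0.0284) in Balb/cJ, a call lost without sham Balb/cJ 3 (0.49) or TAC Balb/cJ 6 (0.53). Between strains after sham Gpc6 differed by -0.13 ± 0.19 (adjusted p = 0.73), so it did not share the strain difference of Gpc3. Gpc2 was at 6 to 26 and Gpc5 at 0 or 1. On the other side of Gpc3, the predicted gene Gm14586 did not pass between the strains after sham (-0.18 ± 0.21, adjusted p = 0.672).

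The genes most like Gpc3 over the 12 libraries were 9130208D14Rik (0.19), Cadm1 (0.19), Src (0.19), Unc13b (0.20) and Kcnmb1 (0.20). Cadm1, a cell adhesion molecule, ran from 60 to 122 in Balb/cJ and from 135 to 197 in the 5 other Balb/cByJ libraries. Its value in the library labelled TAC Balb/cByJ 6 was 171. Unc13b, a priming factor of secretory vesicles, ran from 197 to 399 in Balb/cJ and stood at 512 in that library. Src, a tyrosine kinase, stood at 273 in that library, inside its Balb/cJ range of 121 to 328. 9130208D14Rik stood at 12 there, inside its Balb/cJ range of 7 to 17 and below the other Balb/cByJ libraries (14 to 23). The genes were chosen for their likeness to Gpc3 in that library too, so these values do not bear on its label.

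Afp (Entrez 11576) spans bases 90490714 to 90508907 of chromosome 5 (plus strand), with 15 exons of 2086 bases in all. It stood at 0, 0 and 1 in sham Balb/cJ, at 0 in the 3 TAC Balb/cJ libraries, at 0, 2 and 0 in sham Balb/cByJ and at 1, 0 and 0 in TAC Balb/cByJ. It was the 1 member of the 4 that did not pass the filter, so no difference was tested, and none could be detected at this depth. The strain with little Zhx2 thus held no more than 1 normalized count of Afp in any library. The other genes of the albumin family were as low: Alb was at 0 or 1, and Afm and Gc at 0. The nearest measured genes on either side, Gm9958 and the platelet chemokine gene Ppbp, did not pass between the strains after sham (adjusted p of 0.493 and 0.868, limma).

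Of the known regulators of Afp, 9 of 14 passed the filter. The liver activators Foxa1 and Foxa3 were at 0 in the 12 libraries, and Foxa2 reached 2 in a single library. The part of these low levels in the Afp values was not tested. Zbtb20, a repressor of Afp in mouse liver, was present at 146 to 271 without a strain difference past the threshold (0.19 ± 0.21, adjusted p = 0.641, limma). Cebpa, an activator in liver and a regulator of fat cells, rose after TAC by 0.82 ± 0.16 in Balb/cJ (adjusted p = 0.0089) and by 0.90 ± 0.16 in Balb/cByJ (adjusted p = 0.0239). The second call was lost without sham Balb/cByJ 1 (0.84) or 3 (0.77), and the difference was 0.85 ± 0.19 (adjusted p = 0.0548) without the library labelled TAC Balb/cByJ 6. The summed level of 6 adipocyte markers was 12 to 27 in sham Balb/cJ and 320 to 1803 in TAC Balb/cJ, and their part in the Cebpa values was not tested.

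Other liver genes tied to Zhx2 were mostly silent in these hearts. Of 7 such genes, only Lpl passed the filter, the lipoprotein lipase gene that heart muscle expresses strongly. Lpl ranged from 62226 to 114965 and did not differ past the threshold between strains after sham (-0.12 ± 0.20, adjusted p = 0.781, limma). Elovl3 was at 0 to 3, Cyp4a12a at 0 to 2, and Mup20, Cyp2d9, Cyp2a4 and Cyp4a12b were at 0 in every library.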

How the data were processed

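Total RNA of heart tissue was made into libraries with a stranded mRNA kit, per the labels' protocols. Reads were handled with STAR, Subread (featureCounts) and DESeq2 on mm10, per the submitters' processing notes. The sources give neither versions nor the strand setting, so reads of genes that overlap on opposite strands could be mixed. The deposited gene values are scores: counts divided by the authors' size factors and rounded, a reading that rests on evenly spaced whole numbers that were missing or too frequent. The deposited log2 fold changes were shrunken, per the file headers, and the deposited adjusted p-values are the authors' own. Another column of other units (summed exon length in bases, per the file headers, deposited by the authors) gave values per kilobase.

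The design provided for a count model or, for normalized values, limma, and the second case applied. Values were taken as log2(value + 1), where 1 is the pseudocount. Of 20278 genes with any value above 0, the 14038 with a mean of at least 10 were kept. Group means were fitted over the 12 libraries by limma (3.58.1, under R 4.3.3) with trended eBayes moderation (8 residual degrees of freedom, 7 without the library labelled TAC Balb/cByJ 6). Benjamini-Hochberg adjustment ran over all genes. The fit was tested on simulated data. Sham columns matched the titles by number. TAC columns are numbered 4 to 6 and the titles otherwise, so they were assigned to groups only. The 4 genes and the 16 gene lists were chosen with earlier results of these data known. Genes were named by rule: the members, their 5 most alike genes, every gene within 500 kb of Zhx2, the nearest measured neighbours of the others, and list members. Alternatives were the filter, pseudocounts of 0.5 and 5, an adjusted p of 0.05, rescaling to the upper quartile or the total, the groups fitted, a replicate block and leaving out each library. Of the entries, 847 had no symbol and no column was left unmapped. RefSeq sequences matched Afp, Gpc3 and miR-675. Python 3.11.15 with pandas 2.3.3 and matplotlib 3.10.9 was used for the rest. Precision is limited by 3 libraries per group. Values of some regulators of Afp are not reported here.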

Additional observations from a re-analysis of the deposited data

How the results depend on the processing

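No direction of Zhx2, H19 or Gpc3 was reversed by any alternative run. At an adjusted p of 0.05 the number of genes called was 2881 for TAC in Balb/cJ (4419 at 0.1), 465 for TAC in Balb/cByJ (1765), 568 between strains after sham (1175), and by limma 0 between strains after TAC and 0 for the interaction (1 each, with 954 genes at an unadjusted p under 0.05 for the interaction). With only the groups compared, TAC in Balb/cByJ called 2848 genes and the strains after TAC 0 (1183 unadjusted). Without the filter the strains after TAC called 2 genes. The interaction called 0 genes by limma without the filter (1300 unadjusted), with a pseudocount of 5 (934) and after rescaling to the total (840). Leaving out each library in turn gave 2156 to 5038 genes for TAC in Balb/cJ, 6 to 2815 for TAC in Balb/cByJ (6 without sham Balb/cByJ 1), 321 to 1653 between strains after sham, 0 to 75 after TAC and 0 to 4 for the interaction. The cause was not tested.

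H19 after TAC in Balb/cJ (1.72) was not called at 0.05 or with only those groups. H19 between strains after sham (1.82) was called with only those groups, and Gpc3 after TAC in Balb/cByJ was called with upper-quartile (0.61) or total (0.72) rescaling and with only those groups (0.56). Leaving out each library gave, for TAC in Balb/cJ, TAC in Balb/cByJ, the strains after sham, the strains after TAC and the interaction in turn, 0.44 to 0.81, -2.10 to -0.05, 4.54 to 4.91, 2.00 to 4.05 and -2.76 to -0.71 for Zhx2. For H19 the ranges were 1.01 to 2.35, 0.39 to 0.90, 1.21 to 2.26, 0.17 to 1.5 and -1.65 to -0.31. For Gpc3 they were 0.76 to 1.15, 0.41 to 0.68, 0.71 to 1.10, 0.36 to 0.63 and -0.59 to -0.20. Of the other results, 1723 stayed the same, 263 lost their call and 2 moved. The 2 that moved were lists of most alike genes, which changed when ranked by root mean square difference. Rescaling to the total shifted the median of all genes by 0.21 for TAC in Balb/cJ and 0.16 in Balb/cByJ.

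Deviations of same-numbered libraries of the 2 strains correlated across genes at -0.21, -0.07 and 0.17 for sham. For TAC the correlations were 0.07, 0.10 and -0.05. Differently numbered sham libraries ran from -0.19 to 0.25. With 3 libraries per group these values cannot show whether the numbers pair the samples. With a replicate block, H19 between strains after sham was called (1.82), and the strains after TAC called 0 genes by limma (1298 unadjusted).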
